A study of Rattus norvegicus with 10 samples.

Results

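Solute carriers are membrane proteins that move nutrients, metabolites, metals and other ions across the cell surface and across the membranes of organelles. Their genes, named Slc with a family number, were taken here as all probe sets annotated to 1 gene whose symbol begins with Slc and a number, leaving out Slc10a1, Slc27a2, Slc27a5, Slc2a2, Slc25a15 and Slc40a1. This gave 215 probe sets for 173 genes, out of 9379 genes with a probe set of their own. They were split by what the family is known to carry into 33 mitochondrial (Slc25), 25 amino acid, 24 sugar, 43 inorganic ion and 22 organic ion genes and 24 others. The remaining 2, Slc4a1ap and Slc7a6os, match the name but encode no carrier.

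In the liver, plasma membrane carriers of hepatocytes take up amino acids, carnitine, organic anions and metals from the blood. Carriers of the Slc25 family join the mitochondrial matrix to the cytosol by exchanging phosphate, adenine nucleotides, dicarboxylates, citrate and glutamate. Some carriers work as pairs of subunits: the Slc3a2 protein is the heavy chain that brings several Slc7 amino acid carriers to the cell surface.

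Liver RNA was measured on Affymetrix rat arrays, 1 per animal, in Wistar Han rats (CRL:WI (Han), sex not given in the sources used here) aged 6 to 8 weeks. The 5 control rats received deionized water, the vehicle, and the other 5 received RG3487 at 180 mg/kg, both by gavage in 5 ml/kg. RG3487 is a compound known to act on the alpha-7 nicotinic and the serotonin 5-HT-3 receptors. The samples are labelled 24 h after dosing, whereas the series text gives 2 h, and these sources do not settle which holds. Animals were housed by fives, so cage and treatment cannot be told apart if a cage held 1 group.

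The values are MAS5 signals, brightness of a probe set on a linear scale, and array means lay between 330 and 332. Median signals per array averaged 88.6 ± 2.6 (SD, n = 5) for vehicle and 94.4 ± 1.5 (n = 5) for RG3487 livers (exact two-sided permutation p = 0.00794, the smallest that 252 regroupings allow), so a change of a gene is read against a median change of all genes of 0.0944 on the log2 scale. Of 8 hepatocyte markers 7 were on the array. Their summed signal ran from 53145 to 57926 in vehicle and from 45971 to 54090 in RG3487 livers. Of the 7, 3 were lower (Apoa1, Apoc3 and Serpina1, with log2 changes from -0.19 to -0.14) and 0 higher. Markers of Kupffer cells summed to 2476 to 3017 in vehicle and 2021 to 2589 in RG3487 livers, with 2 of 6 tested lower (Cd163 and C1qb) and 0 higher. Of 4 stellate cell markers tested 1 was higher (Col1a1), the others did not pass, nor did any of the 4 endothelial, 2 red blood cell, 1 cholangiocyte and 1 lymphocyte markers tested. Among all genes tested, 22.3% were higher and 7.4% lower, and these short lists were not tested against those shares. The part of other cell types in the results below was not tested. In bulk liver, fewer cells of a type and less RNA per cell cannot be told apart.

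After the dimmest 25% of all probe sets were left out, 137 of the 173 genes were tested, each by its brightest probe set. The 36 that were left out had group mean signals of at most 49. All changes below are on the scale of log2(signal + 16), RG3487 minus vehicle, and passing means an adjusted p (Benjamini-Hochberg) under 0.05 in a limma fit over 11894 probe sets. Slc4a1ap and Slc7a6os, which encode no carrier, did not pass, and counts over 137 carriers take them in. Of the 137, 22 rose and 19 fell. These are 16.1% and 13.9%, against 22.3% higher and 7.4% lower among all 7727 genes tested. Together 41 passed, 29.9%, where the share over all genes was 29.7%. The median change of the carriers was 0.0176, and its difference from that of all genes was -0.0768. Counted by probe set, 29 of 168 rose and 21 fell, where 20.5% rose and 7.16% fell among all probe sets tested and 27.7% passed in all.

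**Figure D1:**
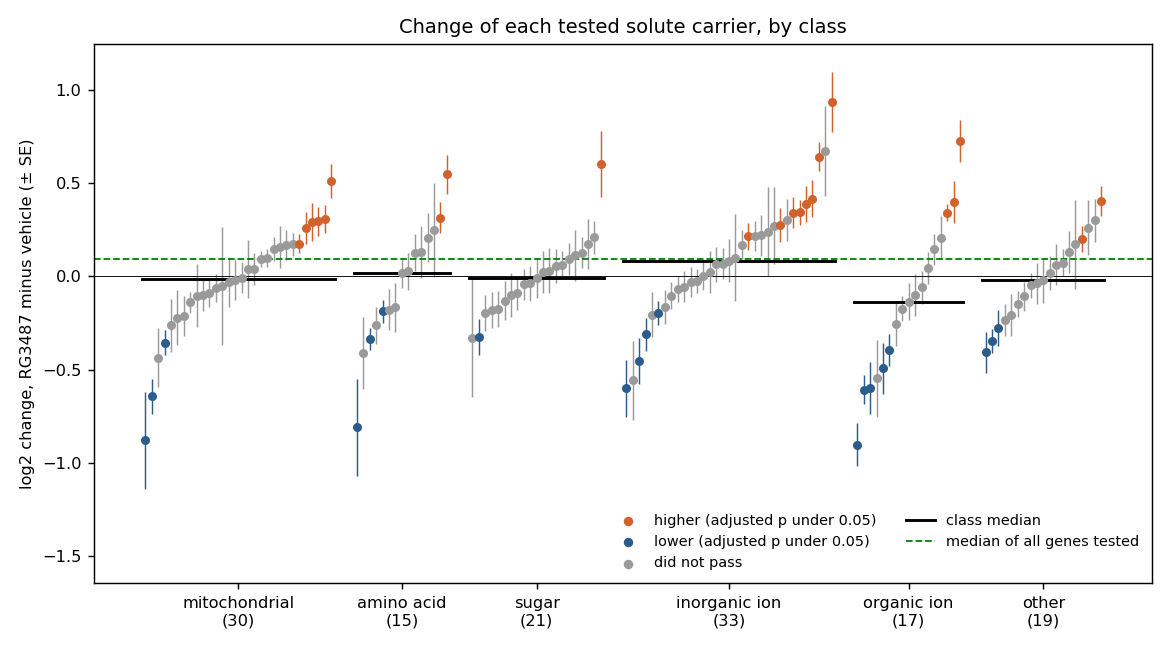
Log2 change of each of 135 tested carriers with its standard error, ordered within each class. Orange points rose, blue points fell and grey points did not pass; black bars mark the class medians, from -0.14 for organic ion carriers to 0.08 for inorganic ion carriers, and the dashed line marks the median of all genes tested at 0.0944.

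By at least 1.5-fold, 4 carriers rose (2.92%) and 7 fell (5.11%), 8.03% together. Among all genes 2.37% rose and 1.86% fell by that much, 4.23% together, and the difference in these shares was not tested. Slc22a5, which encodes the carnitine carrier of the plasma membrane, showed the largest decrease. Slc20a1, which encodes a sodium-phosphate carrier, showed the largest increase. The groups did not overlap in 10 carriers that were higher (7.3%) and 9 that were lower (6.57%) with RG3487, while over all genes tested 15.5% were higher and 4.78% lower without overlap. The split of the calls moved with array scaling. Of the calls 53.7% were increases in the deposited values. Quantile normalization made this 37.5% (15 of 40 calls), centring each array on its median 34.1% (14 of 41) and scaling to the hybridization controls 90.3% (56 of 62). Shares of all genes moved too: 22.3% rose and 7.4% fell as deposited, and 13.3% and 10.1% with quantile normalization. They were 12.8% and 11.2% with centring, and 58.7% and 3.24% with the hybridization controls. Those controls are bacterial and phage transcripts, and their mean on the log2 scale was 9.90 in vehicle and 9.71 in RG3487 livers. The median change of all genes was 0.0205 with quantile normalization, 0.0163 with centring and 0.290 with the hybridization controls.

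**Figure D2:**
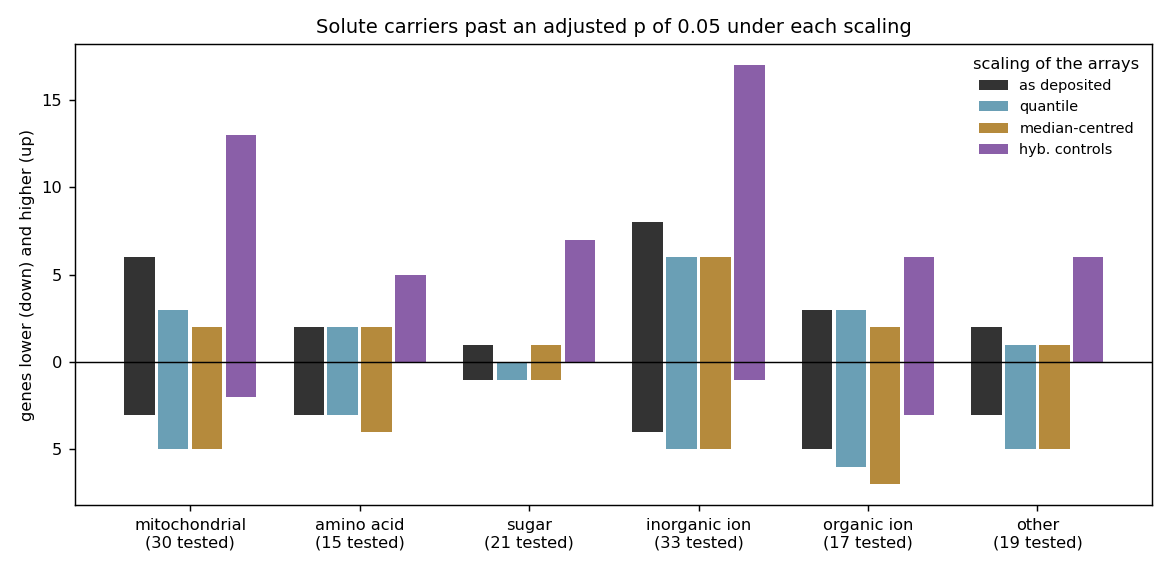
Number of carriers that passed in each class, higher above and lower below the zero line, with the signals as deposited and under 3 other scalings of the arrays. With the hybridization controls, inorganic ion carriers went from 8 to 17 higher and mitochondrial carriers from 6 to 13. The share of all genes that rose went from 22.3% to 58.7%.

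A core of 17 of the 137 carriers tested stayed past the adjusted p threshold in the same direction. This held in each refit in which the gene was tested, the other scalings and the fits without 1 animal included. The share of all genes that stayed so was not worked out, so whether 17 is more or fewer than all genes would give cannot be read from it. Of these 17, 8 also changed by at least 1.5-fold, a size that depended on the pseudocount. With a pseudocount of 64 the folds were under 1.5 for Slc20a2 (1.42), Slc17a2 (1.48), Slc39a4 (1.43), Slc25a32 (1.31) and Slc13a2 (1.28). They stayed above it for Slc20a1 (1.72), Slc17a3 (1.59) and Slc22a5 (1.71). Of the 17, those that rose were Slc20a1, Slc20a2, Slc17a3, Slc3a2, Slc25a10, Slc30a5, Slc5a6, Slc39a14, Slc41a2, Slc26a1, Slc22a18 and Slc38a3. Those that fell were Slc22a5, Slc25a32, Slc17a2, Slc39a4 and Slc13a2. The other 24 calls each ended in at least 1 refit. Scaling to the hybridization controls moved every change upward, so the split of the core by direction depends in part on that refit. It alone ended the falls of Slc12a2, Slc17a5, Slc22a17, Slc22a8, Slc25a22, Slc46a3, Slc4a4 and Slc6a13. Of the 24, those that ended with another scaling or without 1 animal are named with their class.

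**Figure D3:**
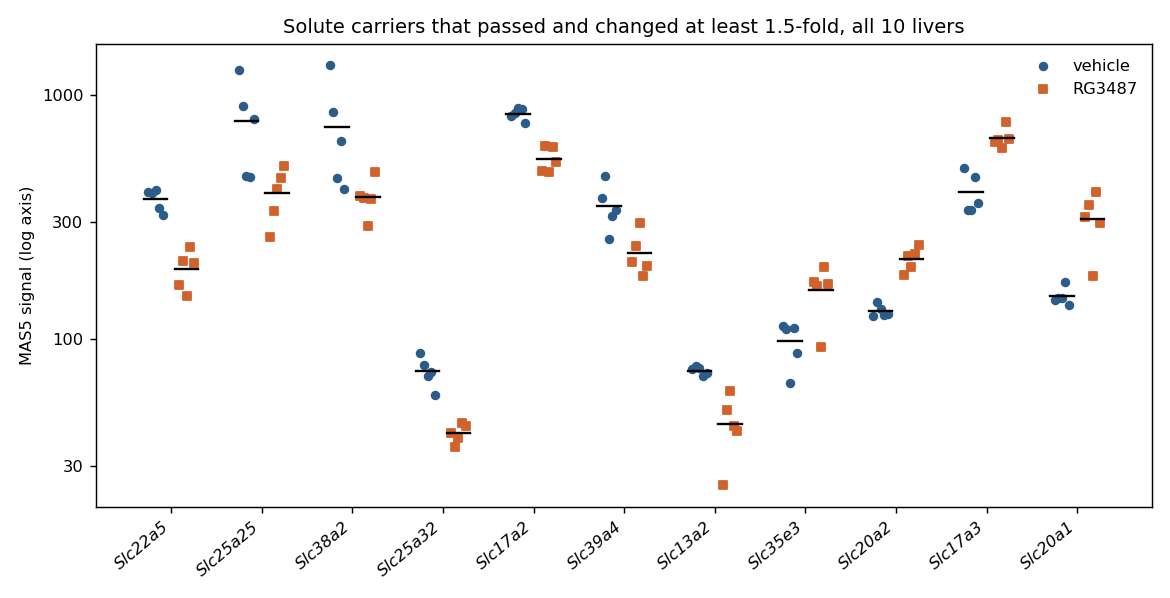
MAS5 signal on a log axis in each of the 10 livers for the 11 carriers that passed with a change of at least 1.5-fold, ordered from the largest decrease to the largest increase. Circles are vehicle and squares RG3487 livers, and bars are group means. Slc22a5, Slc25a32, Slc17a2, Slc13a2, Slc20a2, Slc17a3 and Slc20a1 show no overlap between the groups.

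Among mitochondrial carriers, 6 of 30 tested rose and 3 fell (20% and 10%, against 22.3% and 7.4% of all genes). Together 30% passed, near the 29.7% of all genes. Their median change was -0.01, where that of all genes was 0.0944. The 6 that rose exchange dicarboxylates, citrate, aspartate, phosphate or iron. Slc25a10 encodes the dicarboxylate carrier, which exchanges malate and succinate for phosphate. It read 511, 552, 401, 484 and 472 in the vehicle livers and 628, 740, 620, 715 and 783 with RG3487, animals 1 to 5 in order. Every treated liver lay above every control liver, and the change was 0.51 ± 0.09 (SE; adjusted p = 0.00189). A dimmer second probe set of Slc25a10 changed by 0.06 ± 0.10 and did not pass.

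The oxoglutarate-malate carrier gene Slc25a11 rose by 0.31 ± 0.07 and the citrate carrier gene Slc25a1, which exports citrate used for fatty acid synthesis, by 0.30 ± 0.08. Slc25a12, which encodes an aspartate-glutamate carrier, rose by 0.29 ± 0.10, the mitoferrin gene Slc25a28 by 0.26 ± 0.09, and the phosphate carrier gene Slc25a3 by 0.18 ± 0.05. For Slc25a3 the vehicle livers ran from 1997 to 2346 and the RG3487 livers from 2362 to 2514, so the groups did not overlap despite the small change.

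Slc25a32, known as a mitochondrial carrier of folate or FAD, fell. Its signals were 87, 78, 70, 73 and 59 in vehicle and 41, 36, 39, 45 and 44 in RG3487 livers. The groups were apart, with a change of -0.64 ± 0.09 (adjusted p = 0.000651). The fold was 1.56, and it was 1.76 with a pseudocount of 1 and 1.31 with 64, because the gene is dim.

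Slc25a22, a glutamate carrier gene, read 1473, 1194, 1226, 1262 and 1324 in vehicle and 932, 1040, 952, 1067 and 1049 in RG3487 livers. It fell by 0.36 ± 0.07 (adjusted p = 0.0026) and the groups did not overlap.

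Slc25a25, which encodes an ATP-Mg/phosphate carrier, had the largest mitochondrial change and a large spread. The vehicle livers read 1262, 903, 465, 459 and 798, and the RG3487 livers 260, 334, 412, 457 and 510. The treated livers overlapped only with the lower vehicle livers, and the change was -0.88 ± 0.26 (adjusted p = 0.0267).

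Of the mitochondrial carriers that did not pass, the 3 brightest had small changes. Slc25a5, an ADP/ATP carrier gene, went from 3938 ± 111 (SD, n = 5) to 4221 ± 237 (0.10 ± 0.05, adjusted p = 0.138), Slc25a13, the citrin gene, from 2124 ± 37 to 2268 ± 72 (0.09 ± 0.04, adjusted p = 0.115), and Slc25a39, whose protein is needed for mitochondrial glutathione, from 1133 ± 84 to 1257 ± 78 (0.15 ± 0.06, adjusted p = 0.102). None of these 3 passed as deposited, although all 3 passed as higher with the hybridization controls, Slc25a5 passed as higher with quantile normalization and Slc25a39 without vehicle animal 5 (adjusted p = 0.0397; range over the alternatives 0.00116 to 0.524). For Slc25a13 the groups did not overlap.

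Leaving out 1 animal ended some mitochondrial calls. That of Slc25a25 ended without vehicle animal 1, 2 or 5 or RG3487 animal 1 or 2, with the highest p of 0.0608 (range 0.0139 to 0.0608 over the alternatives), of Slc25a3 without vehicle animal 1 or 4 (0.0536 and 0.051; range 0.000309 to 0.245), of Slc25a12 without any animal but vehicle animal 1 and RG3487 animal 3 (at most 0.11; range 0.00137 to 0.129), and of Slc25a28 without any animal but vehicle animal 4 (at most 0.0913; range 0.00103 to 0.162). With arrays centred the calls of Slc25a1, Slc25a12, Slc25a28 and Slc25a3 ended, with quantile normalization those of Slc25a1, Slc25a11, Slc25a12 and Slc25a28, and with the hybridization controls that of Slc25a22.

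Amino acid carriers were split in direction: of 15 tested 2 rose and 3 fell (13.3% and 20%, against 22.3% and 7.4% of all genes). Their median change was 0.02, and 10 of 25 were too dim to be tested. Slc3a2, the heavy chain gene, read 584, 677, 515, 553 and 498 in vehicle and 830, 852, 653, 897 and 947 in RG3487 livers. RG3487 animal 3 lay below the highest vehicle liver, and the other 4 lay above all of them. The change was 0.55 ± 0.10 (adjusted p = 0.00277). The light chain genes Slc7a5 and Slc7a7 were among the untested, with mean signals of 13.4 and 28.8 in vehicle and 15.4 and 20.2 with RG3487. Slc3a1, another heavy chain gene, was untested as well (37.2 and 37.4).

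Slc38a3, which encodes a glutamine carrier of hepatocytes, read 1349, 1516, 1376, 1403 and 1126 in vehicle and 1578, 1797, 1476, 1777 and 1803 in RG3487 livers. It rose by 0.32 ± 0.08 (adjusted p = 0.0152), with RG3487 animal 3 below the highest control liver.

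The related gene Slc38a2, which encodes a carrier of small neutral amino acids, fell. It read 1324, 847, 456, 648 and 411 in vehicle and 386, 377, 289, 373 and 480 in RG3487 livers. Vehicle animal 1 was the highest, as for Slc25a25, and the groups overlapped, with a change of -0.81 ± 0.26 (adjusted p = 0.0366). Slc38a4, of the same family and bright in liver, changed by -0.19 ± 0.06, from 3691 ± 130.4 to 3248 ± 292 (adjusted p = 0.0373).

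Slc6a13, whose protein takes up GABA and taurine in the liver, fell without overlap. The vehicle livers read 875, 945, 975, 988 and 974, and the RG3487 livers 716, 701, 810, 741 and 792. The change was -0.33 ± 0.06 (adjusted p = 0.0019).

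**Figure D4:**
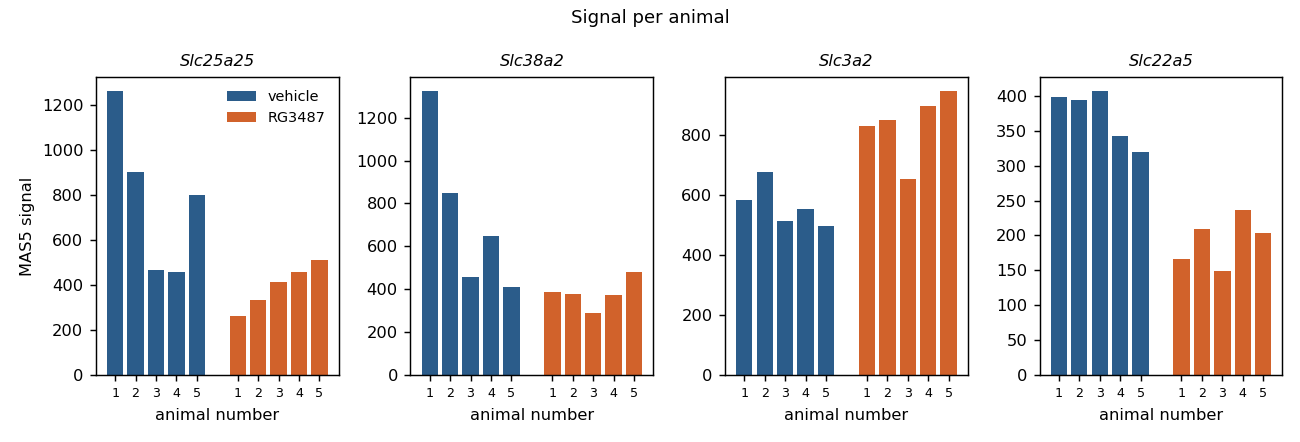
MAS5 signal of Slc25a25, Slc38a2, Slc3a2 and Slc22a5 in each animal, vehicle in blue and RG3487 in orange, on axes that start at 0. Slc25a25 and Slc38a2 are highest in vehicle animal 1, at 1262 and 1324, and Slc3a2 is lowest among treated livers in RG3487 animal 3, at 653.

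Of the amino acid carriers that did not pass, the brightest were Slc38a10 (-0.18 ± 0.11), the glycine carrier gene Slc6a9 (0.13 ± 0.14) and the taurine carrier gene Slc6a6 (0.25 ± 0.25). Slc6a6 varied from 98 to 207 in vehicle and from 88 to 249 in RG3487 livers. The count of lower amino acid carriers was 1 without vehicle animal 1 or 2 or without RG3487 animal 4. The call of Slc38a2 ended without vehicle animal 1, 2 or 4 or RG3487 animal 1, 2, 3 or 4 (adjusted p at most 0.0792; range over the alternatives 0.0155 to 0.0792), and that of Slc38a4 without any animal but vehicle animal 4 and RG3487 animals 1 and 3 (at most 0.0871; range 0.00976 to 0.919). Slc38a4 also lost its call with quantile normalization, and its change turned to 0.01 with the hybridization controls, under which Slc38a2 and Slc6a13 did not pass either.

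Slc3a2 and Slc38a2 are known to respond to amino acid supply, and they moved in opposite directions. The 250 bases before the transcript start of both are shown with matches to known short motifs in capitals, from RefSeq's promoter table for GRCr8. For Slc3a2 (chr1:215048065-215048314, minus strand) the capitals mark GCGTG, the core of the site bound by the aryl hydrocarbon receptor. For Slc38a2 (chr7:129742620-129742869, minus strand) they mark TGACNNNGC, the core of the antioxidant response element.
Slc3a2: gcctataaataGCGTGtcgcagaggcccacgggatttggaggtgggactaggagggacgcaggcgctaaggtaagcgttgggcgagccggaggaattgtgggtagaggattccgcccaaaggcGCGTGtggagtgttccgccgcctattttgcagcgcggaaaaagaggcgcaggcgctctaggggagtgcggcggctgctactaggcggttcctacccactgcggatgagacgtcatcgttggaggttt
Slc38a2: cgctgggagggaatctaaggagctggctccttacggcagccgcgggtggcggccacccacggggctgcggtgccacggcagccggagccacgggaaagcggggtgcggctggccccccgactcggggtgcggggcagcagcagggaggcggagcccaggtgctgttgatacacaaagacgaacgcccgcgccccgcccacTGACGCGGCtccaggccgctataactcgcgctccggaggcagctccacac

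Of the 137 tested carriers 112 had an entry in that table, and the 250 bases before the start were searched on both strands, where matches to different motifs may share bases. GCGTG stood in 50 of the 112 (44.6%), in 7 of 16 that rose and in 5 of 15 that fell, and in 27.2% of all 27457 promoters. TGACNNNGC stood in 23 of 112 (20.5%), in 3 of 16 that rose and 4 of 15 that fell, and in 10.2% of all promoters. The amino acid response element TGATGNAAT and the direct repeat known as the PPAR response element stood in 0 of the 112, and in 0.929% and 0.0546% of all promoters. Motifs this rare can be missing from 112 promoters by chance, and bases after the transcript start were not searched. Whether the carriers lack these elements therefore cannot be read from the count. All promoters include those of genes that were not on the array or too dim in these livers. The shares of the tested carriers and of all promoters are thus not like for like, and their difference was not tested. A match says that the letters are present, not that a factor binds there.

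Of 21 sugar carriers tested, 1 rose and 1 fell (4.76% each, against 22.3% and 7.4% of all genes). Their median change was -0.01. None of the 6 tested genes grouped by family under glucose, fructose and polyols passed, and their changes lay between -0.13 and 0.11. Slc37a4, which carries glucose 6-phosphate into the endoplasmic reticulum, went from 925 ± 111 to 954 ± 175 (0.03 ± 0.12, adjusted p = 0.866). The remaining 15 belong to the Slc35 family, which holds carriers of nucleotide sugars into the Golgi and endoplasmic reticulum and their relatives.

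Slc35e3, a member with no well-known substrate, read 113, 110, 66, 111 and 87 in vehicle and 171, 165, 92, 196 and 167 in RG3487 livers. RG3487 animal 3 lay among the control livers and the other 4 above them. The change was 0.60 ± 0.18 (adjusted p = 0.025), while a dimmer probe set of the gene changed by 0.29 ± 0.11 and did not pass.

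Slc35a3, the carrier gene for UDP-N-acetylglucosamine, read 248, 196, 201, 189 and 227 in vehicle and 138, 188, 164, 157 and 185 in RG3487 livers. It fell by 0.32 ± 0.10 (adjusted p = 0.0264), and the groups were just apart, at 189 and 188. Slc35e1, next by p, did not pass (0.21 ± 0.09, adjusted p = 0.104), with 116, 131, 93, 112 and 114 in vehicle and 150, 136, 139, 116 and 125 in RG3487 livers. Slc35a1, which carries CMP-sialic acid, and Slc35b1 changed by 0.06 ± 0.07 and 0.09 ± 0.09. Slc35b4 did not pass by its brightest probe set (0.13 ± 0.08), while a dimmer one rose by 0.31 ± 0.08 without overlap (adjusted p = 0.0106).

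The call of Slc35e3 ended without vehicle animal 3 or 5 or RG3487 animal 1, 2, 4 or 5 (adjusted p at most 0.0611; range over the alternatives 0.0019 to 0.0611) and with quantile normalization, and that of Slc35a3 without vehicle animal 1 or 5 or RG3487 animal 1 or 4 (at most 0.06; range 0.00743 to 0.252) and with the hybridization controls. Without RG3487 animal 3, 2 sugar carriers were lower.

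Of inorganic ion carriers, 8 of 33 tested rose and 4 fell (24.2% and 12.1%, against 22.3% and 7.4% of all genes). Their median change was 0.08, close to the 0.0944 of all genes. Both sodium-phosphate carriers of the Slc20 family rose. Slc20a1 read 144, 147, 147, 170 and 137 in vehicle and 315, 352, 180, 401 and 298 in RG3487 livers. All treated livers were higher, RG3487 animal 3 by the smallest margin, and the change was 0.94 ± 0.16 (1.92-fold, adjusted p = 0.00165).

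Slc20a2 read 124, 141, 132, 125 and 126 in vehicle and 182, 219, 197, 223 and 241 in RG3487 livers, again without overlap. Its change was 0.64 ± 0.08 (adjusted p = 0.000234), and a second probe set also rose (0.36 ± 0.09). Slc34a2, a phosphate carrier of another family, did not pass (0.10 ± 0.23), nor did the sulfate carrier gene Slc13a4 (0.68 ± 0.24, adjusted p = 0.0566). Slc13a4 passed as higher with the hybridization controls (0.00741), with array weights (0.0431), without vehicle animal 5 (0.0128) and without RG3487 animal 1 (0.041), and its adjusted p ranged from 0.00741 to 0.133 over the alternatives. Slc26a1, which exchanges sulfate and oxalate, rose by 0.34 ± 0.08 (adjusted p = 0.00985).

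Zinc carriers move zinc and related metals out of the cytosol (Slc30) or into it (Slc39), and 4 of 16 tested rose and 2 fell (25% and 12.5%). The share that rose is near the 22.3% of all genes. Of the Slc30 genes, Slc30a5 (0.42 ± 0.10) and Slc30a6 (0.28 ± 0.09), whose proteins pair to load zinc into the secretory pathway, rose, as did Slc30a10, a manganese exporter gene (0.22 ± 0.07). Of the Slc39 genes, Slc39a14, which encodes an importer of zinc, iron and manganese in hepatocytes, rose by 0.39 ± 0.09 (adjusted p = 0.0102).

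Slc39a4, a zinc importer gene, fell. It read 377, 465, 256, 319 and 336 in vehicle and 207, 239, 298, 180 and 199 in RG3487 livers, with RG3487 animal 3 among the control livers. The change was -0.60 ± 0.15 (adjusted p = 0.0125). Slc39a8, another importer gene, changed by -0.19 ± 0.06 (adjusted p = 0.0406).

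Slc41a2, of a magnesium carrier family, rose. It read 1142, 1232, 1275, 1144 and 1458 in vehicle and 1580, 1606, 1659, 1486 and 1598 in RG3487 livers, without overlap. The change was 0.34 ± 0.07 (adjusted p = 0.00348), and a second probe set rose by 0.43 ± 0.06.

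The sodium-bicarbonate carrier gene Slc4a4 fell by 0.45 ± 0.12 (379 ± 61 to 271 ± 37, adjusted p = 0.0167) and the sodium-potassium-chloride carrier gene Slc12a2 by 0.31 ± 0.09 (169 ± 13 to 133 ± 18, adjusted p = 0.02). The copper carrier gene Slc31a1 was read by 4 tested probe sets that differed: the brightest changed by 0.17 ± 0.08 (adjusted p = 0.116), while 2 of the others rose, by 0.56 ± 0.09 and 0.25 ± 0.07. It passed as higher when its probe sets were averaged, with the hybridization controls and without vehicle animal 5 (adjusted p = 0.0278; range over the alternatives 0.00125 to 0.446). The zinc importer genes Slc39a1 (-0.03 ± 0.06) and Slc39a7 (0.27 ± 0.21) did not pass.

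Calls of Slc30a10, Slc30a6 and Slc39a8 were close to the threshold. That of Slc30a10 ended without any animal but vehicle animal 5 (adjusted p at most 0.1; range over the alternatives 0.000499 to 0.289), that of Slc30a6 without vehicle animal 2, 4 or 5 or RG3487 animal 1, 2, 4 or 5 (at most 0.0911; range 0.0011 to 0.133), and that of Slc39a8 without any animal but vehicle animal 3 and RG3487 animal 2 (at most 0.0905; range 0.00598 to 0.995). Slc30a10 and Slc30a6 also lost their calls with centred arrays and with quantile normalization, and Slc39a8, Slc12a2 and Slc4a4 with the hybridization controls, under which the change of Slc39a8 was 0.000551.

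Organic ion carriers, which move organic anions, bile acids, carnitine, cations and carboxylates, had the lowest class median, -0.14, or 0.23 below all genes. Of 17 tested 3 rose and 5 fell (17.6% and 29.4%, against 22.3% and 7.4% of all genes), and 9 did not pass. The 3 genes grouped by family under cations and carnitine all passed, 1 higher and 2 lower. Of these, only Slc22a5 is described here as a carrier of such a substrate. Slc22a5, the carnitine carrier gene, read 399, 394, 407, 343 and 320 in vehicle and 166, 209, 149, 237 and 204 in RG3487 livers. The groups were well apart, and the change was -0.91 ± 0.12 (1.87-fold lower, adjusted p = 0.000301).

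Slc22a18, a member whose substrate is not settled, rose with little spread. It read 1627, 1681, 1571, 1630 and 1677 in vehicle and 2079, 2009, 2190, 2133 and 1995 in RG3487 livers, a change of 0.34 ± 0.05 (adjusted p = 0.000417). Slc22a17, which encodes a receptor for lipocalin, fell by 0.49 ± 0.14 (adjusted p = 0.019), and 1 of its vehicle livers, at 67, lay within the range of the treated livers (65 to 83).

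A pair of related genes of the Slc17 family moved in opposite directions. Slc17a3, which encodes a urate and organic anion carrier, read 503, 337, 337, 460 and 361 in vehicle and 639, 655, 605, 774 and 657 in RG3487 livers. It rose by 0.73 ± 0.11 (adjusted p = 0.000933).

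Slc17a2 read 819, 839, 880, 874 and 765 in vehicle and 487, 614, 482, 613 and 529 in RG3487 livers. It fell by 0.61 ± 0.08 (adjusted p = 0.000376), and in both genes the groups did not overlap. The relatives Slc17a1 (0.15 ± 0.08) and Slc17a4 (0.21 ± 0.12) did not pass.

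Slc22a8, which encodes an organic anion carrier, fell by 0.40 ± 0.08 (1095 ± 72 to 832 ± 106, adjusted p = 0.0051), and its dimmer probe set by 0.73 ± 0.08. Slc22a7, another organic anion carrier gene of liver, did not pass (-0.06 ± 0.09). Its change turned to 0.14 with the hybridization controls and to 0.02 without vehicle animal 3.

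Among carboxylate carriers, Slc13a2, which takes up citrate and succinate, read 75, 77, 76, 70 and 72 in vehicle and 25, 51, 61, 44 and 42 in RG3487 livers. It fell by 0.60 ± 0.14 (adjusted p = 0.00777) without overlap, and its fold of 1.52 was 1.71 with a pseudocount of 1 and 1.28 with 64. Slc16a12, known as a creatine carrier gene, rose by 0.40 ± 0.11 (889 ± 42 to 1195 ± 232, adjusted p = 0.0189), and a second probe set by 0.38 ± 0.11. The lactate and pyruvate carrier genes Slc16a1 (-0.10 ± 0.11) and Slc16a7 (-0.17 ± 0.07, adjusted p = 0.0703) did not pass. Slc16a7 did pass as lower with centred arrays, with quantile normalization and without RG3487 animal 4 (adjusted p = 0.0395; range over the alternatives 0.0141 to 0.812). The call of Slc16a12 ended with centred arrays and those of Slc22a17 and Slc22a8 with the hybridization controls.

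Of 19 other carriers tested, 2 rose and 3 fell (10.5% and 15.8%, against 22.3% and 7.4% of all genes). Their median change was -0.02. Slc5a6, which takes up biotin and pantothenate, read 203, 217, 211, 257 and 219 in vehicle and 295, 296, 260, 329 and 313 in RG3487 livers. It rose by 0.41 ± 0.08 (adjusted p = 0.00318) without overlap. Slc48a1, a haem carrier gene, rose by 0.20 ± 0.07 (adjusted p = 0.0452).

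Slc17a5, which exports sialic acid from lysosomes, read 358, 373, 364, 410 and 330 in vehicle and 274, 281, 292, 279 and 298 in RG3487 livers. It fell by 0.35 ± 0.06 (adjusted p = 0.00252) without overlap. The lysosomal carrier gene Slc46a3 read 198, 149, 159, 201 and 152 in vehicle and 156, 119, 131, 113 and 109 in RG3487 livers and fell by 0.41 ± 0.11 (adjusted p = 0.0171), with RG3487 animal 1 within the range of the control livers. The choline carrier gene Slc44a1 changed by -0.28 ± 0.10 (adjusted p = 0.0498).

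The acetyl-CoA carrier gene Slc33a1 (-0.05 ± 0.07), the thiamine carrier gene Slc19a2 (-0.23 ± 0.09, adjusted p = 0.063) and Slc66a2 (-0.21 ± 0.11) were the brightest that did not pass. Slc19a2 passed as lower with centred arrays, with quantile normalization and on leaving out the first animal of either group (0.0297 for vehicle and 0.038 for RG3487; range over the alternatives 0.0297 to 0.734). The call of Slc48a1 ended without any animal but vehicle animal 3 and RG3487 animal 3 (at most 0.108; range 0.00118 to 0.237), which left 1 carrier higher except without vehicle animal 5, and that of Slc44a1 without any animal but vehicle animal 1 (at most 0.11; range 0.0168 to 0.524). Slc48a1 also lost its call with centred arrays and with quantile normalization, and Slc17a5, Slc46a3 and Slc44a1 with the hybridization controls.

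Of 25 genes read by several tested probe sets, 17 had the same sign of change in all of them. The call differed in 5: Slc25a10, Slc31a1, Slc35b4, Slc35e3 and Slc44a1. In 8, none of which passed by any probe set, the sign differed, with changes between -0.14 and 0.18.

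RG3487 animal 3 was the treated liver nearest to the vehicle mean in 17 of the 41 carriers that passed (41.5%). It held the same place in 41.9% of the 2296 genes that passed. Without it, 20 carriers were higher and 18 lower. The spread between animals of a group was largest for Slc25a30, an uncoupling protein relative, with signals from 308 to 1274 in vehicle and from 373 to 863 in RG3487 livers, and it did not pass (-0.05 ± 0.32). Slc35c2, Slc25a25, Slc38a2 and Slc6a6 followed. The median SD within groups was 0.154 on the log2 scale for the carriers and 0.143 for all genes.

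A list of carriers and partners without such a symbol held 29 genes, of which 21 were tested, 4 rose and 5 fell (19% and 23.8%, against 22.3% and 7.4% of all genes). Mfsd2a, a lysophospholipid carrier gene, had the largest change of the list. It read 1423, 1124, 531, 763 and 573 in vehicle and 175, 191, 124, 365 and 359 in RG3487 livers and fell by 1.80 ± 0.32 (adjusted p = 0.00185) without overlap. The organic anion carrier genes Slco1a1 (-0.50 ± 0.08, groups apart) and Slco2b1 (-0.25 ± 0.07) fell as well. The other Slco genes tested, Slco1a4 (0.22 ± 0.09), Slco2a1 (0.09 ± 0.10) and Slco1b2 (-0.33 ± 0.15), did not pass. Sfxn1, which encodes a mitochondrial serine carrier, rose by 0.26 ± 0.07. The mitochondrial pyruvate carrier genes differed: Mpc2 fell from 3166 ± 424 to 2370 ± 159 (-0.41 ± 0.09, adjusted p = 0.00475), while Mpc1 did not pass (-0.12 ± 0.08, adjusted p = 0.249). All 3 genes of the outer membrane channel, Vdac1 (0.30 ± 0.06), Vdac2 (0.30 ± 0.07) and Vdac3 (0.22 ± 0.07), rose. Atp1b1, a subunit of the sodium pump whose gradient drives many carriers, read 569, 400, 252, 447 and 450 in vehicle and 191, 229, 425, 182 and 160 in RG3487 livers and fell by 0.83 ± 0.25 (adjusted p = 0.0246), with RG3487 animal 3 among the control livers. Bsg, which encodes the partner of Slc16a1, did not pass (-0.15 ± 0.07), nor did Ucp2 (-0.20 ± 0.15), and Emb was too dim to be tested.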

How the data were processed

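The deposited table holds signal intensity values on a linear scale, made by the authors with MAS5 per the submitters' processing notes. Which MAS5 version and target were used is not stated in the sources at hand. Of 15899 probe sets, 40 are controls. Among the others, 12562 carried 1 gene symbol in the platform annotation, 332 several and 2965 none. Symbols were looked up through the gene identifier or accession in RefSeq (GRCr8).

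Signals were analysed as log2(signal + 16), without the controls and the dimmest 25% (mean over all 10 arrays). The 5 RG3487 and 5 vehicle livers were compared with limma 3.58.1 (lmFit, eBayes with trend; R 4.3.3), two-sided, with Benjamini-Hochberg adjustment over all probe sets tested. The fit was tested on simulated data with known changes in a small part of the probe sets and no shift of whole arrays. Those data do not show how it handles the many changes and the array scaling met here. Precision is limited by having 5 arrays a group.

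The members and lists were chosen with earlier results of these data known. All passing members are named, and the value of every array is given for those changed at least 1.5-fold and for the 3 with the smallest p in each class. The 3 brightest that did not pass in each class are named too. Others named (Slc13a4, Slc34a2, Slc17a1, Slc17a4, Slc25a30, Slc35c2, Slc35b4, Slc26a8, Slc13a3, Apoa1, Apoc3, Serpina1, Cd163, C1qb, Col1a1, the Vdac genes, Sfxn1, Mfsd2a, the Slco genes and the array values of Atp1b1) were chosen after their values were seen.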

Additional observations from a re-analysis of the deposited data

Results flagged for a closer look

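Among 46 groups of 5 livers, those of the 23 carriers given with every value, 1 held a value far from the rest, past the 95% point of Dixon's ratio for 5 samples. It was Slc35e3 with RG3487, with a ratio of 0.766: RG3487 animal 3 read 92, and the other 4 read 165 to 196. Chance gives about 1 in 20 such groups. Without that animal the change of Slc35e3 was 0.77.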

How the results depend on the processing

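All 41 calls remained with a pseudocount of 1 and 40 with 64 (without Slc44a1). With quantile normalization 32 remained, with arrays centred on their median 33, and with hybridization control scaling 28. Without 1 animal, higher calls ranged from 16 to 21 and lower calls from 15 to 18. By class, higher and lower calls without 1 animal ranged from 4 to 5 and 2 to 4 (mitochondrial), 2 to 2 and 1 to 2 (amino acid), 0 to 1 and 0 to 2 (sugar), 6 to 9 and 3 to 5 (inorganic ion), 3 to 3 and 5 to 6 (organic ion) and 1 to 2 and 2 to 4 (others).

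With at least a 1.5-fold change, 4 were higher and 7 lower. Centring gave 14 higher in all, 2 higher and 5 lower mitochondrial carriers, and 1 higher and 5 lower among others. Quantile normalization gave 3 and 5 mitochondrial, 0 higher sugar, and 1 and 5 other carriers. Hybridization control scaling gave 56 higher and 6 lower in all: 13 higher mitochondrial, 5 and 0 amino acid, 7 and 0 sugar, 17 and 1 inorganic ion, 6 and 3 organic ion, and 6 and 0 other carriers. Without a filter, with robust estimation and with the replicate block 1 other carrier was higher, and with the block 0 sugar carriers were lower. Animals share only a number: same-numbered deviations correlated by -0.04 to 0.17, and 3 of 10 animals correlated best with their own number. With the block 19 carriers were higher and 17 lower. Slc13a4 then passed as higher (adjusted p = 0.0106), and Slc26a8 and Slc13a3 passed as lower. The calls of Slc25a12, Slc25a25, Slc25a28, Slc35a3, Slc30a6, Slc39a8, Slc44a1 and Slc48a1 ended. Robust estimation ended those of Slc25a25, Slc38a2 and Slc48a1, eBayes without trend those of Slc25a3, Slc30a10, Slc38a4 and Slc39a8, array weights those of Slc25a28 and Slc44a1, and no filter those of Slc25a12, Slc25a28, Slc30a10, Slc39a8, Slc44a1 and Slc48a1. With the dimmest 50% left out 3 organic ion carriers were lower, which leaves fewer genes tested. With probe sets averaged 2 sugar carriers were higher. Apart from the filter, the cause was not tested.

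Changes that turned were, with the hybridization controls, those of Slc16a1 (0.10), Slc16a7 (0.022), Slc22a7 (0.14), Slc33a1 (0.15), Slc38a10 (0.017), Slc38a4 (0.0075), Slc39a1 (0.17, which then passed) and Slc39a8 (0.000551). With quantile normalization they were Slc35a1 (-0.037), Slc35b1 (-0.012) and Slc37a4 (-0.019), with centring Slc35a1 (-0.016) and Slc37a4 (-0.046), and with probe sets averaged Slc33a1 (0.040). Without 1 animal, Slc22a7 ranged from -0.11 to 0.023, Slc39a1 from -0.066 to 0.0022 and Slc37a4 from -0.040 to 0.10. Of these, Slc38a4 and Slc39a8 had passed as deposited.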
